A study of Mus musculus with 6 samples.

Results

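The 9 genes described here were the amyloid precursor family, App, Aplp1 and Aplp2, and genes of the proteases that cut it, Bace1, Psen2, Psenen, Ncstn, Aph1a and Adam10. They were taken by symbol from a deposited count table of 28324 gene rows, and each symbol had its row. The table came from Drop-Seq, in which single cells are caught in droplets with barcoded beads and the 3' ends of their transcripts are counted by molecular tag (unique molecular identifier, UMI). Cells were dissociated from the whole hippocampus of 6 mice, all 10 weeks old and all APP/PS1, the strain B6.Cg-Tg(APPswe,PSEN1dE9)85Dbo/Mmjax. The ASO group (3 mice) was given an antisense oligonucleotide, and the PBS group (3 mice) was given phosphate buffered saline. Mylip, which encodes the ubiquitin ligase IDOL named in the title of the study, was taken as the oligonucleotide's target. Saline was the only control, so effects of the target and of oligonucleotides in general cannot be told apart, and every mouse carried the transgenes, so no level here was set against a mouse without them.

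The amyloid precursor protein spans the membrane and is cut in steps. Alpha-secretase, chiefly the protease encoded by Adam10 in neurons, cuts within the amyloid beta stretch, while beta-secretase, encoded by Bace1, cuts at its start. Gamma-secretase, a complex of a presenilin with nicastrin, an Aph1 subunit and the presenilin enhancer encoded by Psenen, then cuts inside the membrane and sets the end of the peptide. The strain's transgenes encode a mutant amyloid precursor and a mutant presenilin under mouse prion promoter elements, so the App row may hold reads of the mouse gene, of the transgene or of both. The sources used here do not say which row took transgene reads.

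Short coding stretches of the 3 precursor genes are shown from the mouse reference, build GRCm38. They were read from the annotated coding transcripts on the minus strand and are written 5' to 3'. The first is the stretch of App that encodes amyloid beta, 126 bases or 42 codons in exons 14 and 15 at chr16:84962794-84965720, with the codon that follows the beta-secretase cut in capitals.
App, amyloid beta: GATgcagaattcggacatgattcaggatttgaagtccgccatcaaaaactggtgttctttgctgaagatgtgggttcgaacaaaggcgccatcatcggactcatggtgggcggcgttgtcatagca
The next lines give 36 bases that encode the cytoplasmic sorting motif NPxY, which adaptor proteins and endocytosis read in all 3 precursors, with the codons of the motif in capitals. They lie at chr16:84955346-84955381 in exon 16 of App, at chr7:30435305-30435340 in exon 17 of Aplp1 and at chr9:31150886-31150921 in exon 17 of Aplp2.
App: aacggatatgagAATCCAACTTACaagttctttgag
Aplp1: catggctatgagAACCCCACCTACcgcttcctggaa
Aplp2: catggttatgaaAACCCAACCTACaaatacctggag
Aplp1 and Aplp2 shared 28 of the 36 bases, App and Aplp2 shared 26, and App and Aplp1 shared 24. Within the 12 motif bases the shared counts were 11, 10 and 9 in the same order, so App was the most distant of the 3 over this stretch.

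After removal of 207 cells called as doublets, 12616 cells remained, with 1751 to 2822 cells and 2005768 to 3150332 UMIs per mouse and a median of 1027 to 1096 UMIs per cell. The column names placed cells in 17 classes, and all 50 of 50 marker genes, from lists for 13 of the classes, were highest in the class they mark. In 10 classes every mouse had at least 20 cells. Levels are counts per 1000000 UMIs of a class in a mouse (CPM of all UMIs), and levels of different genes are not compared. As a check of the labels, Mylip stood at 167, 199 and 175 CPM in microglia and macrophages of ASO mice, against 354, 375 and 390 CPM in PBS mice. It fell there in edgeR's quasi-likelihood test, with a log2 fold change of -1.05 and an adjusted p of 0.00418, which ranged from 0.00137 to 0.238 over the alternatives and passed the threshold in all of them except the fit without ASO mouse 1. The mice were ordered by UMIs of mt-Rnr2 per UMI of mt-Cytb, both mitochondrial transcripts, and cut by rank into 3 sets of equal size. Each set held an ASO and a PBS mouse, the PBS mouse having the higher value. The values were 4.49 and 7.16 in the low set, 10.9 and 12.9 in the middle set and 15.9 and 16.8 in the high set. These sets were read from the data and not from the labels, and a cut by rank does not show that they are separate groups.

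Among the deposited cells, App RNA was concentrated in oligodendrocytes, the myelin-forming cells. Shares are of UMIs in these cells, which had 569 to 1999 UMIs each, and not of RNA in the tissue. Oligodendrocytes gave 23.3% of all UMIs but 54.4% of the 27867 App UMIs, with 49.0% to 59.8% in single mice, while the 7 neuron classes together gave 19.4% of all UMIs and 18.5% of those of App. The oligodendrocyte level averaged 4554 ± 347 CPM (SD, n = 6 mice of both groups), was the highest of the 10 classes in 6 of 6 mice and overlapped no other class among these 10. CA1 neurons followed with 2347 ± 486 CPM, then endothelial cells of the vessel wall with 2300 ± 168 CPM, subiculum neurons with 2217 ± 601 CPM, Cajal-Retzius neurons with 1891 ± 174 CPM and dentate neurons with 1514 ± 211 CPM. Neighbours among these 5 classes overlapped over the mice, so the order of neighbours is not settled by these data. Endothelial cells had at least 2140 CPM in every mouse. That was above every mouse's value in Cajal-Retzius neurons, at most 2131 CPM, and in dentate neurons, at most 1870 CPM. Mural cells, the contractile cells around vessels, had 959.9 ± 293 CPM, and polydendrocytes, the precursors of oligodendrocytes, had 909 ± 83.7 CPM. Microglia and macrophages had 329 ± 38.0 CPM and astrocytes 182 ± 24.8 CPM, the lowest level in 6 of 6 mice and 25.0-fold below oligodendrocytes. The classes were made from all genes of these cells, so the differences between classes are descriptions without a test.

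**Figure D1:**
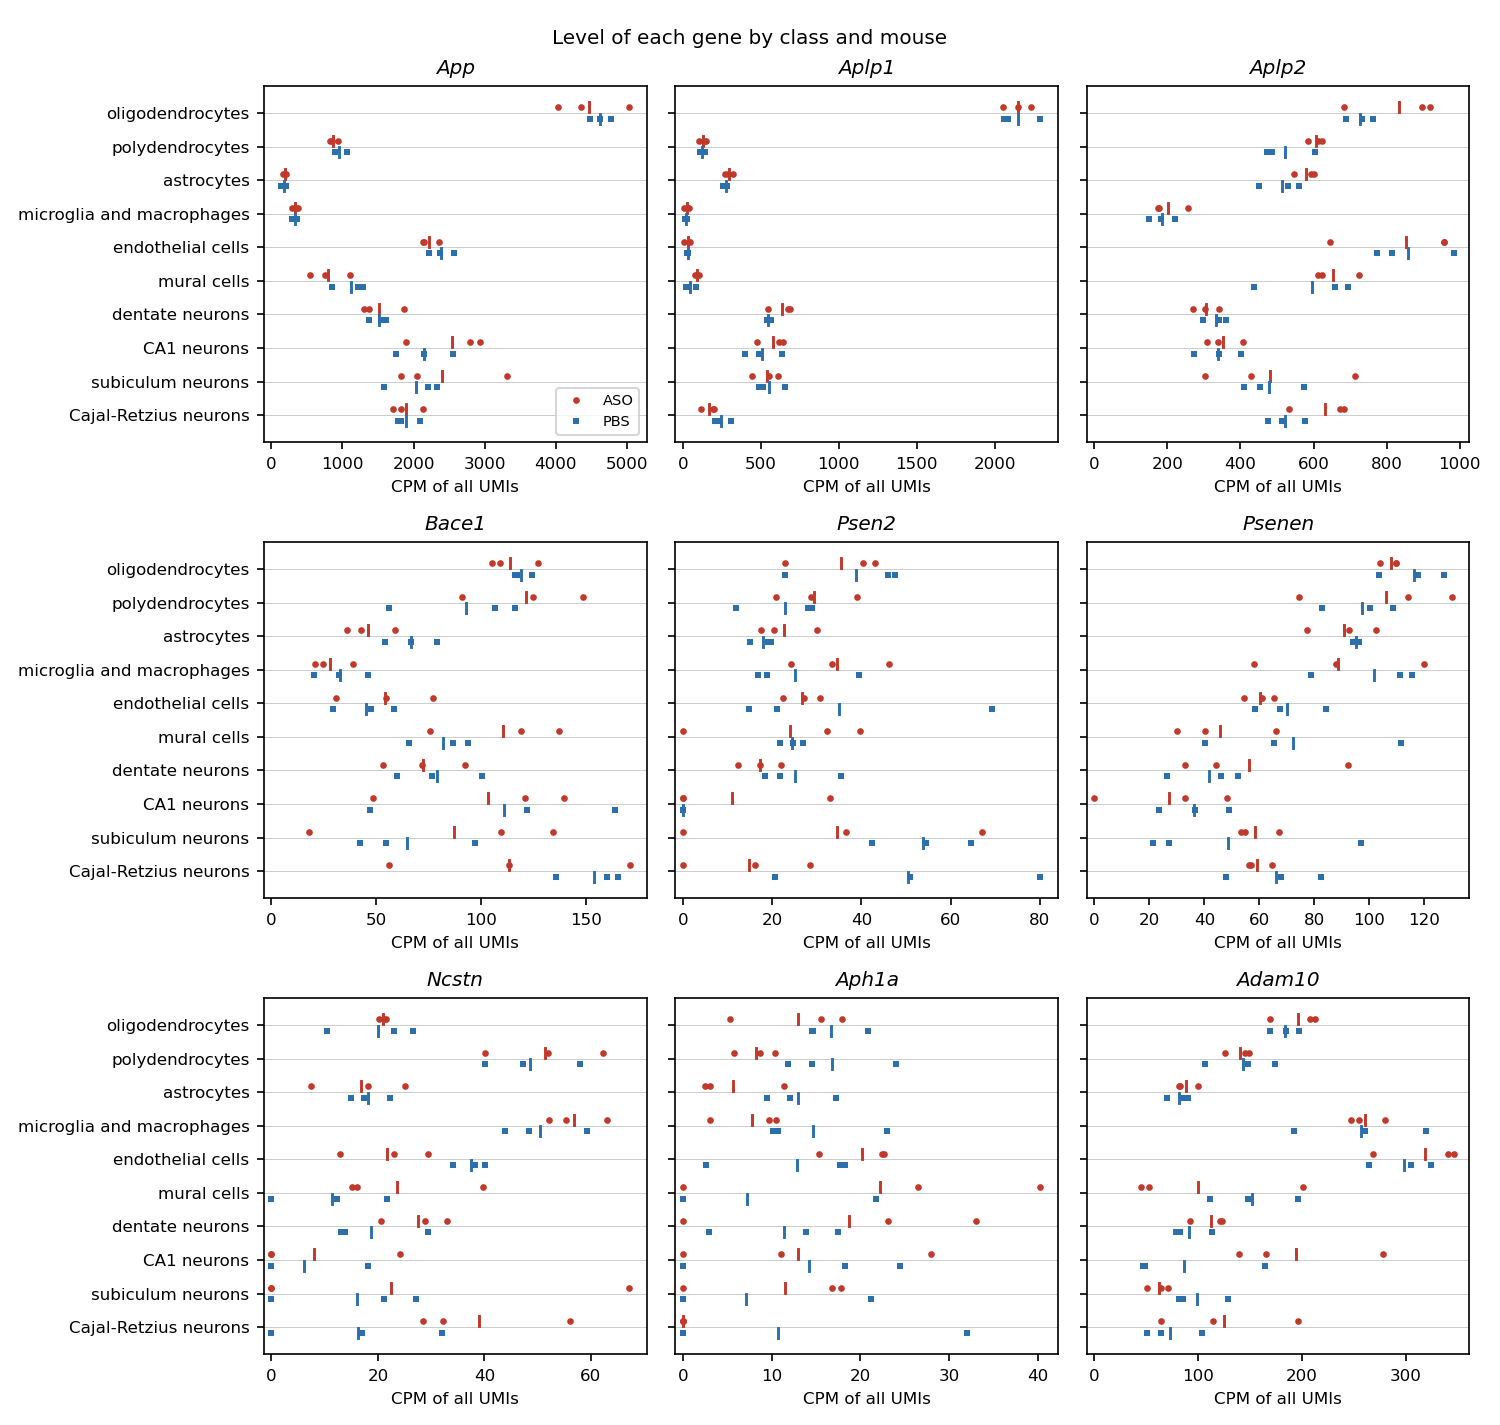
Level of each of the 9 genes, in CPM of all UMIs on a linear axis of its own, in the 10 classes with at least 20 cells in every mouse. Red circles are single ASO mice and blue squares single PBS mice, vertical ticks are the group means (n = 3 mice each), and App and Aplp1 stand far to the right in oligodendrocytes while the rarer genes spread over the mice.

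Free RNA from broken cells can give UMIs in every class, so levels of myelin markers outside oligodendrocytes are set beside those of App. The App level in astrocytes was 4.0% of that in oligodendrocytes, and in microglia and macrophages it was 7.27%. For oligodendrocyte markers, the level in microglia and macrophages was 11.6% of the oligodendrocyte level for Mbp, 4.30% for Mobp, 0.820% for Mag and 0.378% for Mog. In astrocytes the same markers ran from 6.85% for Mbp to 0.370% for Mag. The App shares in both classes thus lay inside the range of these myelin transcripts, and how much of the App RNA there came from other cells was not tested. In endothelial cells App stood at 50.6% of the oligodendrocyte level and in pooled neurons at 40.4%, above each of these markers in endothelial cells, where Mbp was the highest at 7.51%.

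Aplp1, a precursor homologue known mainly from the nervous system, was still more concentrated. Oligodendrocytes held 74.9% of its 9586 UMIs, with 70.6% to 79.0% in single mice, at a level of 2148 ± 98.1 CPM that was the highest in 6 of 6 mice. Dentate neurons had 592 ± 68.8 CPM, subiculum neurons 546 ± 78.8 CPM and CA1 neurons 543 ± 102 CPM, and these 3 overlapped each other but not astrocytes, which had 284 ± 21.2 CPM. Cajal-Retzius neurons had 208 ± 61.6 CPM, polydendrocytes 126 ± 18.6 CPM and mural cells 69.1 ± 35.7 CPM. Endothelial cells had 29.9 ± 14.7 CPM and microglia and macrophages 22.7 ± 10.7 CPM, which were 1.38% and 1.07% of the oligodendrocyte level and within the range of the myelin markers there. App and Aplp1 thus differed in endothelial cells, which were among the upper classes for App and near the bottom for Aplp1. Oligodendrocytes and polydendrocytes belong to the same lineage, and the level in oligodendrocytes was the higher one for both genes in 6 of 6 mice.

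Aplp2, the widely expressed homologue, had the flattest pattern of the 3 precursors. Endothelial cells had 856 ± 134 CPM, the highest level in 5 of 6 mice, and oligodendrocytes had 781 ± 103 CPM, the highest in the remaining mouse. From mural cells with 624 ± 102 CPM through Cajal-Retzius neurons, polydendrocytes, astrocytes, subiculum neurons and CA1 neurons to dentate neurons with 319 ± 33.7 CPM, each class overlapped the next. Microglia and macrophages were apart at 193 ± 38.3 CPM, the lowest in 6 of 6 mice. The highest class mean was 4.43-fold the lowest, against 25.0-fold for App and 94.7-fold for Aplp1. Of the 8078 Aplp2 UMIs, 31.9% lay in oligodendrocytes, 20.8% in endothelial cells, 15.1% in astrocytes and 13.9% in neurons.

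Bace1, the beta-secretase gene at chr9:45838580-45864399 on the plus strand, was thinly sampled, with 1115 UMIs. Oligodendrocytes held 34.7% of them and the neuron classes 23.1%. By level Cajal-Retzius neurons came first with 134 ± 43.7 CPM, the highest in 4 of 6 mice. That level rested on only 41 UMIs, in the class with the high choroid plexus markers. Oligodendrocytes came second with 117 ± 8.54 CPM from 387 UMIs. Polydendrocytes had 107 ± 31.6 CPM, CA1 neurons 107 ± 48.5 CPM, mural cells 96.3 ± 27.0 CPM and astrocytes 56.3 ± 15.7 CPM. Endothelial cells had 49.6 ± 18.0 CPM and microglia and macrophages 30.5 ± 10.5 CPM, the lowest mean. All 9 pairs of neighbours in this order overlapped over the mice. The gene overlaps Rnf214 on the other strand, and the sources used here do not say whether counting used strand, so reads of both cannot be separated with certainty.

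The 4 gamma-secretase genes were low in every class, and each had its highest mean in a different class. Psenen, the smallest subunit and the one needed for the complex to mature, had 1189 UMIs and stood at 112 ± 9.12 CPM in oligodendrocytes, 102 ± 20.5 CPM in polydendrocytes, 95.3 ± 24.4 CPM in microglia and macrophages and 92.9 ± 8.37 CPM in astrocytes. Its dentate level was 49.0 ± 23.2 CPM and its CA1 level 31.7 ± 18.3 CPM, and the neuron classes held 10.3% of its UMIs against 19.4% of all UMIs. Ncstn, which encodes nicastrin, the subunit that binds substrates, had 400 UMIs, of which microglia and macrophages held 26.3% while they gave 13.8% of all UMIs. Its level was 53.7 ± 7.05 CPM in microglia and macrophages and 49.97 ± 9.20 CPM in polydendrocytes, against 20.5 ± 5.44 CPM in oligodendrocytes and 17.5 ± 6.08 CPM in astrocytes. Over the single mice, the lowest value in microglia and macrophages was 43.8 CPM and the highest in oligodendrocytes was 26.6 CPM, so Ncstn set these classes in the opposite order to App, Aplp1 and Bace1. Psen2, a catalytic presenilin, had 415 UMIs, with 37.1 ± 11.3 CPM in oligodendrocytes, 29.8 ± 11.8 CPM in microglia and macrophages and 3 UMIs in all CA1 neurons. Aph1a, which encodes a scaffold subunit, had 182 UMIs and class means between 5.34 and 16.5 CPM, too few to order the classes. Psenen overlaps U2af1l4, Ncstn overlaps Copa and Aph1a overlaps Car14, each on the other strand, which leaves the same uncertainty as for Bace1.

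Adam10, the alpha-secretase gene at chr9:70678997-70780229 on the plus strand, was highest on average in endothelial cells and next in microglia and macrophages. Endothelial cells had 308 ± 35.4 CPM, the highest in 4 of 6 mice, and microglia and macrophages had 259 ± 41.8 CPM, the highest in 2 of 6 mice. Oligodendrocytes followed with 190.0 ± 18.9 CPM and polydendrocytes with 142 ± 23.0 CPM. CA1 neurons had 141 ± 86.3 CPM and mural cells 126 ± 68.0 CPM. Dentate neurons had 102 ± 19.9 CPM, Cajal-Retzius neurons 98.9 ± 53.7 CPM, astrocytes 84.7 ± 10.0 CPM and subiculum neurons 80.2 ± 27.0 CPM. Of the 2495 UMIs, 25.1% lay in oligodendrocytes, 25.0% in endothelial cells, 20.6% in microglia and macrophages and 11.9% in neurons. Microglia and macrophages thus had the lowest mean of the 10 classes for Aplp1, Aplp2 and Bace1 and the second highest for Adam10.

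**Figure D2:**
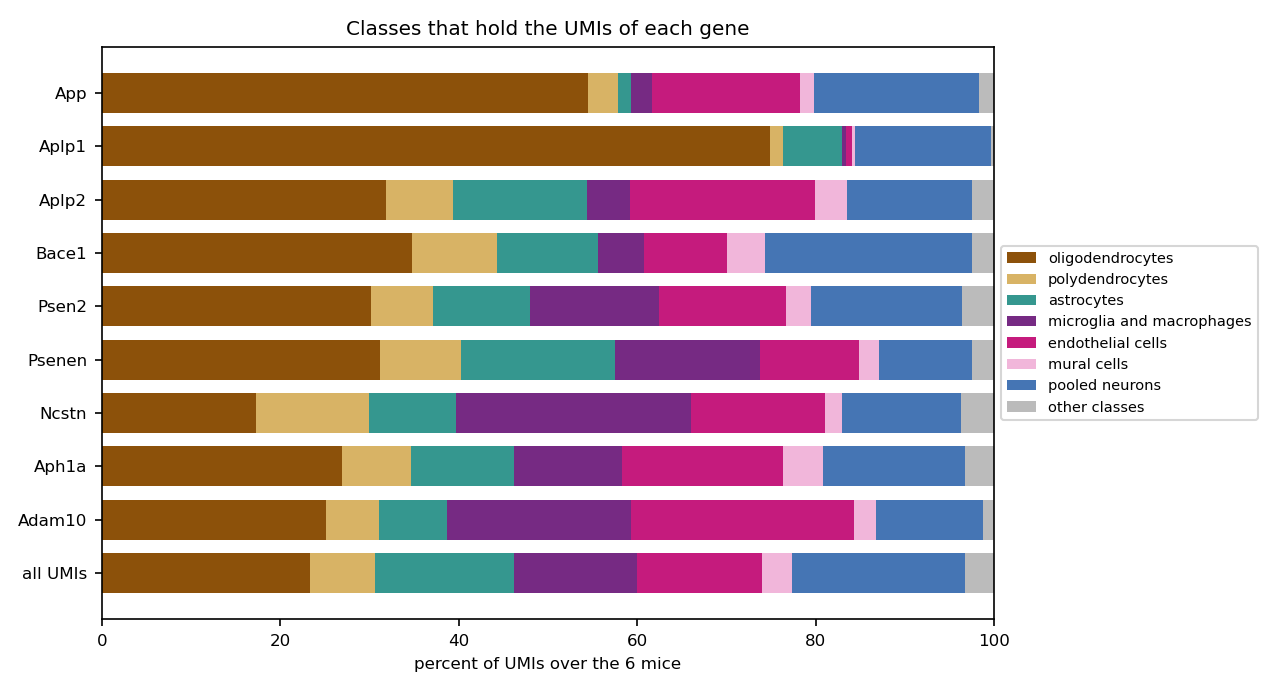
Percent of the UMIs of each gene, over the 6 mice of both groups, that lay in each class, with the same split of all UMIs in the lowest bar. Pooled neurons are the 7 neuron classes together, and oligodendrocytes hold 54.4% of App and 74.9% of Aplp1 UMIs against 23.3% of all UMIs.

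Prnp, the prion gene whose promoter elements drive the strain's transgenes, had another distribution than App. It stood at 5201 ± 1015 CPM in CA1 neurons, 4362 ± 425 CPM in dentate neurons and 4239 ± 569 CPM in subiculum neurons, and at 1144 ± 96.3 CPM in oligodendrocytes. Neurons held 50.8% of its 23140 UMIs and oligodendrocytes 16.7%. The share of Prnp UMIs that came from transgenes was not tested.

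Classes where some mouse had fewer than 20 cells were not tested. App had 196 UMIs in CA2 and CA3 neurons, or 3136 CPM, 486 in subiculum and entorhinal neurons, or 2248 CPM, and 246 in interneurons, or 1847 CPM. Choroid plexus cells, which make cerebrospinal fluid, had 108 App UMIs, or 1841 CPM, and ependymal cells had 184, or 784 CPM, also over pooled UMIs. Bace1, Psen2 and Aph1a had 0 UMIs in choroid plexus cells, where 3 UMIs amount to 51.1 CPM, so a level up to that size would not have been detected. Between the groups, App in interneurons was 1499, 1278 and 948 CPM in ASO mice, from 49, 39 and 21 UMIs, against 2849, 2366 and 3399 CPM in PBS mice, from 42, 40 and 55 UMIs. The groups did not overlap, ASO mice being lower, in a class with 12 to 28 cells a mouse. App was 1252, 1208 and 1321 CPM in fibroblast-like cells of ASO mice, against 1641, 1346 and 1558 CPM in those of PBS mice, also without overlap. In ependymal cells it was 755, 911 and 957 CPM in ASO mice, against 675, 713 and 578 CPM in PBS mice, with all ASO mice higher. All ASO mice were also higher in ependymal cells for Aplp1, with 13 UMIs against 0 in PBS mice, and for Bace1, with 14 against 1. In CA2 and CA3 neurons Aplp2 was higher in all ASO mice, with 23 UMIs against 5. These classes were singled out after their values were seen and have no test. The share of all genes with groups apart was not counted in them. It ran from 8.49% to 12.4% in the comparisons that were tested.

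Genes with the most similar class patterns were sought by Pearson correlation of log2(mean CPM + 10) over the 10 classes, among 10428 genes with at least 200 UMIs. All class means share the same 6 libraries, and the values are descriptions. Closest to App were Ssna1 with an r of 0.935, Dixdc1 with 0.914 and Hsp90ab1 with 0.908, and closest to Aplp1 was Tmod2 with 0.953. Aplp2 was closest to Pdcd6 with 0.925, Bace1 to Stk39 with 0.898, Psenen to Rab31 with 0.964, Ncstn to Lmnb1 with 0.968 and Adam10 to Herc4 with 0.937. Aph1a had too few UMIs to be searched. Among the 8 genes searched the highest value was 0.651 for Psenen and Ncstn. Aplp1 and Bace1 reached 0.586, App and Bace1 0.585, Psen2 and Psenen 0.554, Psen2 and Ncstn 0.540 and App and Aplp1 0.484. The lowest was -0.57 for Aplp1 and Ncstn. The gamma-secretase genes searched thus all had positive values with each other.

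ASO and PBS mice were then compared within each class, over neurons pooled and over all cells, on counts summed per mouse. None of the 9 genes passed the threshold of 0.05 on the adjusted p of edgeR's quasi-likelihood test in any of the 12 comparisons, and DESeq2 also called none. Of 68 tests, 0 had an unadjusted p under 0.05, 39 fold changes were above 0 and 29 below, and the lowest adjusted p from edgeR was 0.620. Across all genes tested the share called was 0.238% in oligodendrocytes, 0.257% in mural cells, 0.188% in subiculum neurons, 0.0447% in polydendrocytes, 0.0371% in pooled neurons, 0.0365% in microglia and macrophages, 0.00714% over all cells and 0.0% in astrocytes, endothelial cells, CA1, Cajal-Retzius and dentate neurons. A count of 0 among 9 genes is therefore near the background. The filter on low counts left 8 of the 9 genes in oligodendrocytes, 7 each in endothelial cells, microglia and macrophages and pooled neurons, 6 each in astrocytes, dentate neurons and polydendrocytes, and 3 each in mural cells, CA1, Cajal-Retzius and subiculum neurons, while all 9 were tested over all cells. Over all cells, 5 of the 9 fold changes were above 0 and 4 below, from -0.18 for Aph1a to 0.14 for Aplp1 on the log2 scale, with a median of 0.027 against 0.0028 for all 14002 genes tested. In summed counts, fewer cells with a transcript and less RNA per cell cannot be told apart. With 3 mice a group, p-values rest on the spread between these mice, which edgeR estimates in part from all genes tested and not from each gene alone.

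**Figure D3:**
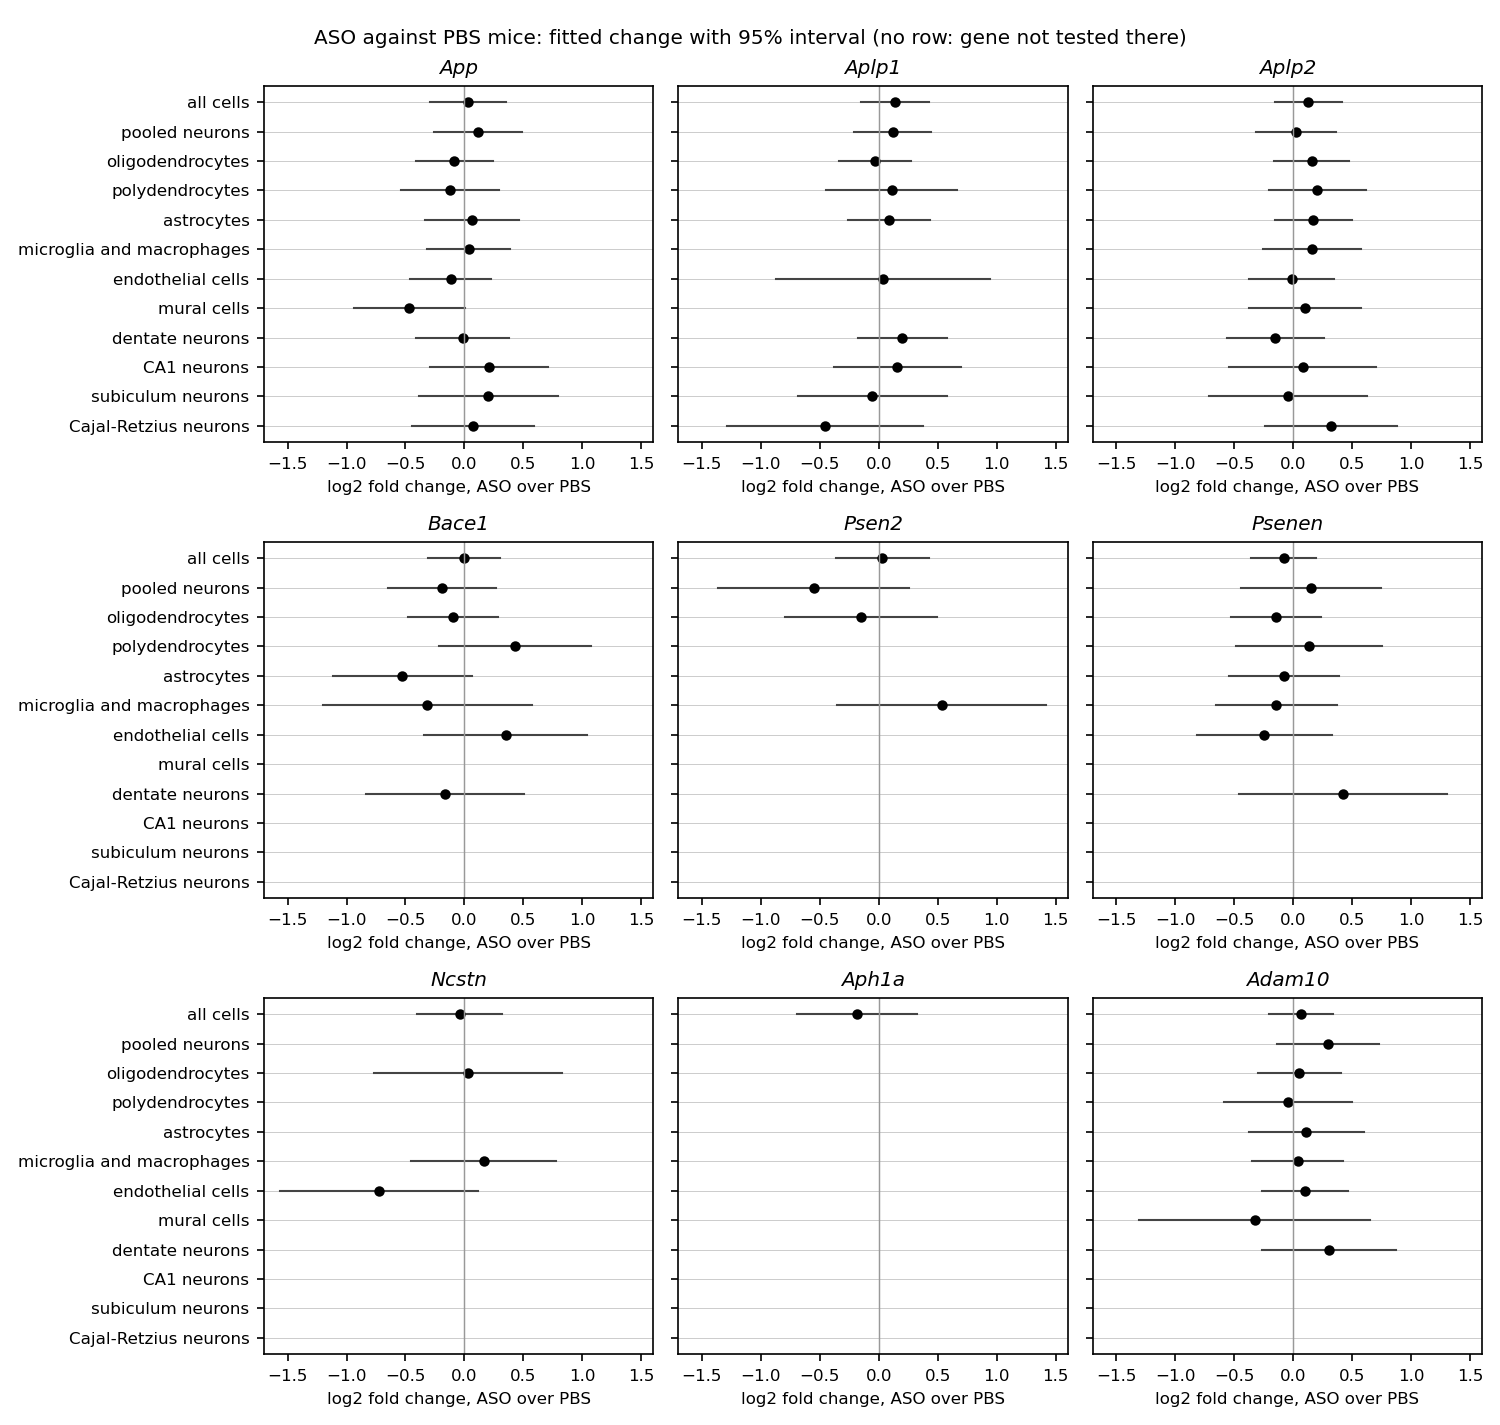
Fitted log2 fold change, ASO over PBS (edgeR), of each gene over all cells, in pooled neurons and in the 10 classes, with 95% intervals as lines, n = 3 mice a group and the same axis in every panel. A row without a point was not tested for that gene, every interval reaches both sides of 0, and intervals widen for the rarer genes.

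App in oligodendrocytes, the class with most of its UMIs, was 4360, 5035 and 4034 CPM in ASO mice, against 4485, 4622 and 4786 CPM in PBS mice. The PBS values all lay between the lowest and highest ASO values. The log2 fold change was -0.085 with an SE of 0.158, a 95% interval from -0.41 to 0.24 and an adjusted p of 0.973 (edgeR). Changes of either sign within that interval are compatible with these values, and the interval is not a limit of detection. Within the low, middle and high sets of mice the ASO minus PBS difference was 0.12, -0.041 and -0.25 on the log2 scale, which differed in sign. The summed level of the 5 oligodendrocyte markers in the same cells was 78320, 81890 and 62800 CPM in ASO mice, against 84000, 93090 and 77820 CPM in PBS mice, with 0 of 5 markers higher on average in ASO mice and none at 0, and its part in the App values was not tested.

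In pooled neurons App was 1673, 2435 and 1679 CPM in ASO mice, against 1594, 1895 and 1805 CPM in PBS mice, with a log2 fold change of 0.12, an SE of 0.185 and an adjusted p of 0.983 (edgeR). ASO mouse 2 was the highest of all 6, and the other ASO mice lay within the PBS range. Without that mouse the log2 fold change was -0.071. In endothelial cells App was 2142, 2355 and 2140 CPM in ASO mice, against 2215, 2374 and 2574 CPM in PBS mice, a log2 fold change of -0.12 with an SE of 0.171. In microglia and macrophages it was 282, 344 and 372 CPM in ASO mice, against 286, 362 and 328 CPM in PBS mice, a log2 fold change of 0.035. Groups overlapped in all of these classes, and over all cells the log2 fold change of App was 0.027 with an SE of 0.153 and a 95% interval from -0.30 to 0.35.

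Mural cells gave the lowest p of the 68 tests. App was 749, 1112 and 544 CPM there in ASO mice, against 845, 1221 and 1287 CPM in PBS mice, with means of 802 ± 288 CPM in ASO mice and 1118 ± 238 CPM in PBS mice (SD, n = 3 each). ASO mouse 2 lay inside the PBS range and the other ASO mice below it. The log2 fold change was -0.47 with an SE of 0.232, a 95% interval from -0.94 to 0.0075 and an adjusted p of 0.620 (edgeR). Without ASO mouse 3 this fold change was -0.26 on the log2 scale, and without ASO mouse 2 it was -0.73. Endothelial cells have more App than mural cells, and the summed level of 5 endothelial markers in the mural cells was 1377, 2079 and 499 CPM in ASO mice, against 1852, 3489 and 2092 CPM in PBS mice, with 0 of 5 markers higher on average in ASO mice and none at 0. The 5 oligodendrocyte markers, of another class with more App, lay the other way there, with 1885, 2000 and 786 CPM in ASO mice, against 617, 1134 and 1238 CPM in PBS mice, 5 of 5 higher on average in ASO mice and none at 0. Without overlap, the 4 polydendrocyte markers summed to 532, 437 and 363 CPM in ASO mice, against 349, 284 and 347 CPM in PBS mice, with 3 of 4 higher in ASO mice and none at 0. The 5 microglial markers summed to 48.3, 119 and 60.5 CPM in ASO mice, against 40.3, 21.8 and 24.8 CPM in PBS mice, with 5 of 5 higher in ASO mice and none at 0. The part of these lists in the App difference was not tested.

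Aplp1 in oligodendrocytes was 2150, 2237 and 2057 CPM in ASO mice, against 2293, 2089 and 2062 CPM in PBS mice, and the groups overlapped almost wholly, with a log2 fold change of -0.036 and an SE of 0.148. In pooled neurons it was 536, 587 and 511 CPM in ASO mice, against 494, 500.4 and 502 CPM in PBS mice, so the groups did not overlap. The log2 fold change was 0.12 with an SE of 0.163 and an adjusted p of 0.978 (edgeR), and within the low, middle and high sets the difference was 0.23, 0.12 and 0.027 on the log2 scale. The same sign in every set follows from groups that do not overlap. Groups failed to overlap in 10.2% of all genes tested in pooled neurons, and among the 7 genes tested here this was 1. The makeup of the pool moved with the groups, since dentate neurons were 44.1%, 38.9% and 43.6% of neurons in ASO mice, against 52.0%, 49.7% and 64.0% in PBS mice. So did the summed level of 5 oligodendrocyte markers in the pooled neurons, at 817, 994 and 840 CPM in ASO mice, against 654, 819 and 586 CPM in PBS mice, with 5 of 5 markers higher on average in ASO mice and none at 0, although the groups overlapped. The part of either in the Aplp1 values was not tested. In dentate neurons alone Aplp1 was 673, 687 and 546 CPM in ASO mice, against 544, 562 and 539 CPM in PBS mice, which overlapped, with a log2 fold change of 0.20 and an SE of 0.186.

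In Cajal-Retzius neurons, an early-born type at the surface of the hippocampus, Aplp1 lay the other way. It was 194, 196 and 114 CPM in ASO mice, against 305, 227 and 208 CPM in PBS mice, from 12, 7 and 4 UMIs in ASO mice and 18, 11 and 13 UMIs in PBS mice. The groups did not overlap, which held for 9.45% of all genes tested in Cajal-Retzius neurons and for 1 of the 3 members tested there. The log2 fold change was -0.46 with an SE of 0.403 and an adjusted p of 0.966 (edgeR), and the 3 sets gave -0.21, -0.66 and -0.87 on the log2 scale. Here too the shared sign follows from groups that do not overlap. The 5 oligodendrocyte markers summed to 1098, 2383 and 1683 CPM in these cells of ASO mice, against 1323, 1280 and 881 CPM in those of PBS mice, with 5 of 5 higher on average in ASO mice and none at 0. The 3 choroid plexus markers summed to 22690, 40540 and 98720 CPM in ASO mice, against 34600, 12120 and 21250 CPM in PBS mice, with 3 of 3 higher in ASO mice and none at 0. The class's own 3 markers summed to 4603, 2888 and 2311 CPM in ASO mice, against 4224, 3344 and 3716 CPM in PBS mice, with 0 of 3 higher in ASO mice and none at 0. The 5 neuronal markers summed to 8802, 6785 and 4679 CPM in ASO mice, against 7124, 8134 and 7384 CPM in PBS mice, with 0 of 5 higher in ASO mice and none at 0. ASO mouse 3, with the least Aplp1, had the most of the choroid plexus markers and the least of the neuronal and Cajal-Retzius markers, and without it the log2 fold change of Aplp1 was -0.34. It was -0.27 without PBS mouse 1. The part of these lists was not tested.

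Aplp2 in oligodendrocytes was 685, 918 and 898 CPM in ASO mice, against 690.1, 732 and 763 CPM in PBS mice, a log2 fold change of 0.15 that left the groups overlapping through ASO mouse 1. In astrocytes it was 546, 593 and 602 CPM in ASO mice, against 450.4, 529 and 559 CPM in PBS mice, with a log2 fold change of 0.17, an SE of 0.161 and an adjusted p of 0.9989 (edgeR). In endothelial cells, where its level was highest, the log2 fold change was -0.015.

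**Figure D4:**
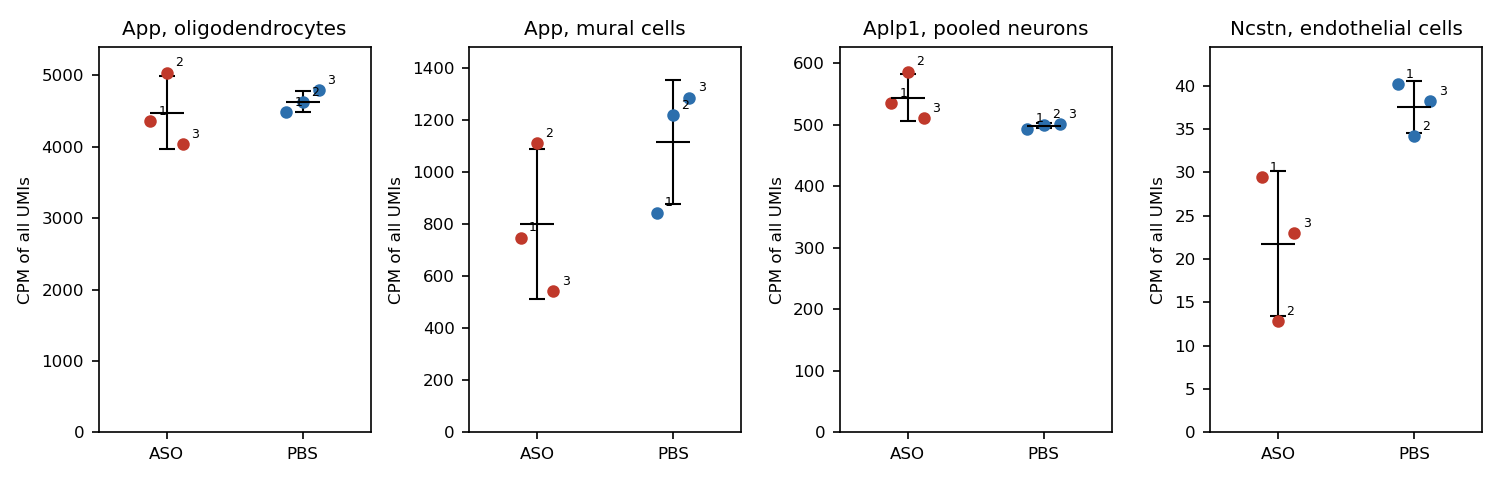
CPM of all UMIs of App in oligodendrocytes, App in mural cells, Aplp1 in pooled neurons and Ncstn in endothelial cells, on linear axes from 0. Points are single mice with their replicate number, bars are the mean ± SD (n = 3 a group), and groups overlap for App in both classes but not in the other panels.

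Among the secretase genes, Ncstn in endothelial cells had groups that did not overlap. It was 29.4, 12.9 and 23.0 CPM in ASO mice, against 40.1, 34.2 and 38.3 CPM in PBS mice, from 13, 4 and 6 UMIs in ASO mice and 11, 13 and 13 UMIs in PBS mice. Means were 21.8 ± 8.36 CPM in ASO mice and 37.5 ± 3.03 CPM in PBS mice (SD, n = 3 each), and the log2 fold change was -0.73 with an SE of 0.415, a 95% interval from -1.57 to 0.11 and an adjusted p of 0.9995 (edgeR). Without ASO mouse 2, which had the 4 UMIs, it was -0.47 on the log2 scale. The 3 sets of mice gave differences of -1.41, -0.45 and -0.73 on the log2 scale. Their shared sign follows from groups that do not overlap and is no further evidence. Groups failed to overlap in 9.53% of all genes tested in endothelial cells, and among the 7 genes tested here this was 1. In the remaining 9 comparisons none of the genes tested had groups apart, where the share of all genes tested was 8.99% in astrocytes, 11.0% in microglia and macrophages, 12.4% in mural cells, 9.01% in CA1 neurons, 8.49% in dentate neurons, 9.79% in subiculum neurons, 11.5% in oligodendrocytes, 9.0% in polydendrocytes and 9.02% over all cells. Members that the low-count filter left out could still lie apart, with all ASO mice lower. Adam10 in subiculum neurons averaged 61.9 CPM in ASO and 98.6 CPM in PBS mice, from 14 and 11 UMIs. Aph1a in polydendrocytes averaged 8.26 CPM in ASO and 16.8 CPM in PBS mice, from 4 and 10 UMIs. Neither was tested, and the share apart among genes left out was not counted. The summed level of 5 microglial markers in the endothelial cells was 34.0, 38.6 and 46.0 CPM in ASO mice, against 21.9, 26.3 and 38.3 CPM in PBS mice, with 5 of 5 markers higher on average in ASO mice and none at 0. The 5 mural markers summed to 2957, 3357 and 2727 CPM there in ASO mice, against 3346, 4100 and 4460 CPM in PBS mice, with 0 of 5 higher in ASO mice and none at 0. The part of either was not tested.

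Bace1 in oligodendrocytes was 109, 127 and 105 CPM in ASO mice, against 116, 124 and 117 CPM in PBS mice, with a log2 fold change of -0.10. In astrocytes it was 59.1, 42.6 and 36.1 CPM in ASO mice, against 66.6, 79.1 and 54.1 CPM in PBS mice. ASO mouse 1 lay within the PBS range there, and the log2 fold change was -0.53 with an SE of 0.288 and an adjusted p of 0.9989 (edgeR). In polydendrocytes it was 149, 91.0 and 125 CPM in ASO mice, against 107, 116 and 56.1 CPM in PBS mice, a log2 fold change of 0.43, and the sets of mice gave -0.35, 0.48 and 1.15, which differed in sign. The log2 fold change over all sets was 0.11 without PBS mouse 3 and 0.67 without ASO mouse 2.

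Adam10 in pooled neurons was 109, 135 and 110 CPM in ASO mice, against 75.2, 127 and 84.6 CPM in PBS mice. PBS mouse 2 lay among the ASO mice and the others below them, and the log2 fold change was 0.29 with an SE of 0.213 and an adjusted p of 0.958 (edgeR). Without PBS mouse 2 it was 0.54, and without PBS mouse 1 it was 0.16. In oligodendrocytes the log2 fold change of Adam10 was 0.051. Psenen had log2 fold changes of -0.15 in oligodendrocytes and -0.15 in microglia and macrophages, where the values were 87.8, 58.2 and 120.0 CPM in ASO mice, against 111, 79.0 and 116 CPM in PBS mice. Psen2 in pooled neurons was 27.3, 8.85 and 23.99 CPM in ASO mice, against 27.6, 24.5 and 36.5 CPM in PBS mice, from 15, 4 and 10 UMIs in ASO mice and 11, 11 and 19 UMIs in PBS mice, with a log2 fold change of -0.55 and an SE of 0.401. This was -0.20 without ASO mouse 2, which had the 4 UMIs, and -0.89 without ASO mouse 1. Aph1a, tested only over all cells, was 14.3, 9.78 and 11.0 CPM in ASO mice, against 14.1, 13.7 and 12.7 CPM in PBS mice, with overlapping groups and a log2 fold change of -0.18.

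Whether the ASO effect in a class differed from that in all other cells was tested with an edgeR interaction model that kept the mouse as a block. None of the 9 genes was called in the 11 such comparisons, which held 97 tests. Of all genes tested, the share called was 0.19% for oligodendrocytes, 0.0493% for dentate neurons, 0.047% for pooled neurons, 0.0373% for CA1 neurons, 0.0323% for polydendrocytes, 0.0319% for microglia and macrophages, 0.0263% for mural cells, 0.0162% for astrocytes, 0.016% for endothelial cells and 0.0% for Cajal-Retzius and subiculum neurons. The only unadjusted p under 0.05 was that of Adam10 in CA1 neurons, 0.0191, with a difference in log2 fold change of 1.20, an SE of 0.511 and an adjusted p of 0.9988 (edgeR), from 56 UMIs in the class.

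Other genes of the pathway were followed as 4 lists with 39 genes. None was called in 225 edgeR tests, 10 had an unadjusted p under 0.05, and the lowest adjusted p was 0.106. Over all cells, 6 of 8 secretase partners and related proteases had fold changes above 0, with a median log2 fold change of 0.18 against 0.0028 for all genes. Of the 16 adaptor and sorting genes 8 were above 0, with a median of 0.00057, of the 5 genes of amyloid beta degradation 3 were, with a median of 0.055, and of the 10 other secretase substrates 4 were, with a median of -0.077. Nearest to the threshold was Chl1, a cell adhesion molecule shed by Bace1, in subiculum neurons, with 285, 250 and 146 CPM in ASO mice, against 572, 467 and 549 CPM in PBS mice. Its groups did not overlap, as in 9.79% of genes tested there, and the log2 fold change was -1.29 with an SE of 0.344. The adjusted p of 0.106 (edgeR) became 0.0282 with a term for the 3 sets of mice and lay between 0.0973 and 0.836 in the other 10 alternatives. CA1 neurons, where Chl1 was higher at 503 ± 95.7 CPM over the 6 mice against 378 ± 175 CPM in subiculum neurons, have 3 markers that summed to 151, 196 and 183 CPM in the subiculum neurons of ASO mice, against 245, 212 and 420 CPM in those of PBS mice. The sums did not overlap, 0 of 3 were higher in ASO mice, and Fibcd1 was at 0. The 3 Cajal-Retzius markers summed to 33.6, 0 and 9.14 CPM in ASO mice, against 408, 63.7 and 32.3 CPM in PBS mice, with 0 of 3 higher in ASO mice and Lhx1 at 0. The part of either list was not tested.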

How the data were processed

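Per the labels, hippocampal cells of 3 ASO and 3 PBS mice went through Drop-Seq with sequencing of 3' ends. The authors deposited counts of UMIs per gene and cell, without normalization, and column names gave mouse and class. The submitters' processing notes name the tools bcl2fastq and STAR 2.5.0c and the builds mm10 and GRCm38. Counting program, annotation and strand setting were not given in the sources used here. Of 28324 genes, 24078 had a count, and the 12823 cells had 569 to 1999 UMIs each. Of 12811 barcodes, 8 occurred in more than 1 mouse. Every column was used.

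Doublets were called per mouse with Scrublet in scanpy 1.11.5, and 207 cells (1.61%) were removed. Counts were summed per mouse over a class with at least 20 cells in each mouse, over the 7 neuron classes and over all cells. The test of ASO against PBS was the two-sided quasi-likelihood test of edgeR 4.0.16 (R 4.3.3, TMM, filterByExpr, glmQLFit, glmQLFTest), adjusted by Benjamini-Hochberg over all genes of a comparison, with 0.05 as threshold. The tests were tested on simulated counts. Class levels are CPM of all UMIs with the SD over mice and were not tested, since the authors' classes rest on all genes. The limit of 3 UMIs for a count of 0 covers counting error only. Alternatives were DESeq2 size factors, the DESeq2 1.42.0 test, no low-count filter, doublets kept, a term for 3 sets of mice, and each mouse left out. The 9 genes, the pathway and marker lists and the sets were chosen with earlier results of these data known. Named genes were the 9 in every tested class, pathway genes nearest the threshold, Prnp, Mylip and the genes of closest pattern, some of which are not reported here. Gene positions and sequences came from the GENCODE annotation of GRCm38, and no protein sequences are shown.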

Additional observations from a re-analysis of the deposited data

How the results depend on the processing

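No member was called in any of the 12 comparisons under any of the 11 alternatives, and the lowest adjusted p of a member over all settings was 0.128. Of the 36 member fold changes followed, 21 kept their sign under every alternative and 14 changed sign when 1 mouse was left out. The lowest and highest log2 fold changes with a mouse left out were, over all cells, -0.074 and 0.11 for App, -0.093 and 0.12 for Bace1, -0.081 and 0.17 for Psen2, -0.11 and 0.0083 for Ncstn and -0.011 and 0.18 for Adam10. For App they were -0.073 and 0.18 in astrocytes, -0.078 and 0.15 in microglia and macrophages, -0.19 and 0.063 in dentate neurons, -0.061 and 0.37 in subiculum neurons and -0.071 and 0.20 in pooled neurons. They were -0.079 and 0.0037 for Aplp1 and -0.029 and 0.16 for Adam10 in oligodendrocytes, -0.13 and 0.17 for Aplp2 in endothelial cells and -0.40 and 0.020 for Psenen in microglia and macrophages. Without a filter on low counts, Bace1 over all cells came to 0.00070 and App in Cajal-Retzius neurons to -0.041 on the log2 scale, and the cause was not tested. With doublets kept, 1 of 90 class levels moved by more than the SD over mice, that of Aplp1 in microglia and macrophages, at 35.7 CPM.

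No paired analysis was possible because the labels give no numbers that pair the mice. A term for the 3 sets of mice called none of the 9 genes. Counts over all genes depended more on the setting than those of the members: in oligodendrocytes 17 genes were called, 41 without a filter, 31 with the set term and 9 by DESeq2, and in pooled neurons the counts were 3, 17, 26 and 0 in the same order. Precision was set by the 3 mice a group and, for Psen2, Ncstn and Aph1a, by 415, 400 and 182 UMIs in all.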

Other observations

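Prnp in microglia and macrophages was 165, 228 and 139 CPM in ASO mice, against 97.7, 92.2 and 110.3 CPM in PBS mice, and in mural cells it was 338, 543 and 227 CPM in ASO mice, against 134, 196 and 223 CPM in PBS mice. The groups did not overlap in either class, as in 11.0% of genes tested in microglia and macrophages and 12.4% in mural cells. The log2 fold changes were 0.79 with an SE of 0.224 and an adjusted p of 0.394, and 1.0 with an SE of 0.338 and an adjusted p of 0.293 (edgeR), so neither was called. Both classes had little Prnp, 139 ± 51.6 and 277 ± 146 CPM over the 6 mice, against 4362 ± 425 CPM in dentate neurons, and the share of free RNA in the values was not tested. In microglia and macrophages the 5 oligodendrocyte markers summed to 1444, 1343 and 1385 CPM in ASO mice, against 923, 1241 and 1038 CPM in PBS mice, with 4 of 5 higher in ASO mice and none at 0. In mural cells the 4 polydendrocyte markers summed to 532, 437 and 363 CPM in ASO mice, against 349, 284 and 347 CPM in PBS mice, with 3 of 4 higher in ASO mice and none at 0. Neither pair of groups overlapped. Prnp itself was at 1144 CPM in oligodendrocytes and 1863 CPM in polydendrocytes over the 6 mice, and the part of either list was not tested.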
